A study of Mus musculus with 12 samples.

Results

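The 10 genes described here handle iron, bind metals or belong to the acute-phase response: the transporters Slc11a1, Slc11a2, Slc40a1 and Tfrc, the ferritin heavy chain Fth1, the secreted proteins Lcn2, Saa3 and Hp, and the metallothioneins Mt1 and Mt2. They were chosen by symbol from the 43280 genes of the deposited table, and all 10 were among the 12086 genes that passed the filter on low values. Each was followed in bone marrow-derived macrophages (BMDM) of C57BL6 mice, either wild type (wt) or Treml4-/-. BMDM are grown from total marrow with M-CSF, and they were left unstimulated with vehicle (M0, 0 h) or given lipopolysaccharide (LPS), a bacterial cell wall component, at 100 ng/ml for 8 h (M1-8 h) or 12 h (M1-12 h). Poly(A) RNA was sequenced with a strand-specific kit in 2 biological replicates of each of the 6 groups, 12 libraries in all. Treml4, a receptor of the TREM family, is the gene missing from the mutant mice, and both genotypes received the same culture and LPS treatment. The labels give no age and do not say how many mice stand behind a library, so that p-values measure only the spread between these samples.

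Macrophages recycle the iron of old red cells, and they change how they hold it during infection. Iron enters bound to transferrin through the receptor Tfrc, is moved out of endosomes by Slc11a2 (DMT1) and out of the phagosome by Slc11a1 (NRAMP1), is stored inside ferritin cages built from Fth1 and Ftl1, and leaves the cell through Slc40a1 (ferroportin), the only known iron exporter of mammals. Lcn2 captures bacterial siderophores, Hp (haptoglobin) binds free haemoglobin, and Saa3 is the serum amyloid A that mouse macrophages make. Mt1 and Mt2 bind zinc and copper through clusters of cysteines, and their promoters answer to the zinc sensor Mtf1. Part of iron control acts on RNA: iron regulatory proteins (Aco1, Ireb2) bind hairpins called iron-responsive elements (IRE), holding back translation when the hairpin lies in a 5′ UTR and stabilising the message when it lies in the 3′ UTR.

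The IRE are shown because hairpins of this kind link an mRNA to iron control. The GENCODE M21 transcripts were searched for a loop of CAGTG followed by A, C or T. The loop had to sit on 5 paired bases, an unpaired C and at least 4 of 5 further pairs. G with T was counted as a pair. This form was found in 3 of the 10 genes, Fth1, Slc40a1 and Tfrc. The same form was present in 24 of 21877 protein-coding genes, or 0.110%. The loop is in capitals and every element is read 5′ to 3′ on the strand of its gene in GRCm38. In Fth1 it lies in the 5′ UTR at chr19:9982730-9982759 on the plus strand, and in Slc40a1 in the 5′ UTR at chr1:45925466-45925495 on the minus strand. Tfrc has 4 of them in its 3′ UTR on the plus strand, at chr16:32631217-32631246, chr16:32631596-32631625, chr16:32631661-32631690 and chr16:32631708-32631737.
Fth1: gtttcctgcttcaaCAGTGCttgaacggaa
Slc40a1: tccaacttcagctaCAGTGTtagctaagtt
Tfrc, first of the set: ataattatcggaagCAGTGCcttccataat
Tfrc, next: cacattatcgggagCAGTGTcttccataat
Tfrc, next but one: gtctatatcggagaCAGTGAtctccatatg
Tfrc, last: gtaattatcgggaaCAGTGTttcccataat
In Slc11a2 no stretch of this form was found, which says only that these letters and pairs are not in its annotated transcripts. Hairpins with other pairs or bulges were not searched for, so the search does not place Slc11a2 outside iron control.

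The promoters of Mt1 and Mt2 are shown because these neighbouring genes differed in how far they changed. They lie side by side on the plus strand of chromosome 8, Mt2 from 94172664 to 94173568 and Mt1 from 94179082 to 94180327 (GRCm38). The sequences are the 250 bases before the RefSeq start of each gene (GRCm38.p6), Mt1 at chr8:94178839-94179088 and Mt2 at chr8:94172368-94172617. Capitals mark the core of the metal response element, TGCACNC or TGCGCNC on either strand.
Mt1: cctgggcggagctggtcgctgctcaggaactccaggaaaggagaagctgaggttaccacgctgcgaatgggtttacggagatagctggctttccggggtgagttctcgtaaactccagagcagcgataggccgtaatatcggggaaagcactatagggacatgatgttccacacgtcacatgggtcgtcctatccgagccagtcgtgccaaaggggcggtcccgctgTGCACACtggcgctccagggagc
Mt2: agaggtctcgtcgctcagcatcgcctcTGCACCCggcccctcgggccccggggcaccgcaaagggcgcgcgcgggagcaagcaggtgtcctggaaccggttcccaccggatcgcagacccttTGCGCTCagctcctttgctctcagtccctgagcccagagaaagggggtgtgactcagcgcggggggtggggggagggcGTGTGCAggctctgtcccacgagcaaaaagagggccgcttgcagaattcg
Over the 300 bases of the RefSeq window, which runs on past the start, Mt1 held 3 matches and Mt2 held 4. Of 32851 RefSeq promoters, 25.7% held at least 1 match and 1.97% held 3 or more. Among the 7 members with a promoter in the table, Tfrc was the other with this core, as 2 overlapping matches on opposite strands. The C/EBP form TTGCNNAA, found in 10.8% of promoters, was present at -216 to -209 in Lcn2 (TTGCTCAA), at -99 to -92 in Saa3 (TTATGCAA, read on the opposite strand), in Mt2 and in 1 of the 2 promoters of Fth1. No window of a member held the NF-kB form searched, which 8.46% of promoters held, or the STAT form TTCNNNGAA, which 8.30% held. The antioxidant response element TGACNNNGC, in 12.4% of promoters, was present in Mt2 alone among these windows.

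The libraries held 48008751 to 58500792 reads on genes, so that 1 read was worth 0.0171 to 0.0208 CPM (reads scaled to the library size, per 1e6). Treml4 had 198 to 663 reads in the 6 wt libraries and 0 in the 6 Treml4-/- libraries. The 6 macrophage markers together had 8409 to 10597 CPM at M0 and 4720.1 to 5538 CPM with LPS, and in every comparison with M0 3 of them were called higher (Mertk, Fcgr1 and either Cd14 or Itgam) and 2 lower (Csf1r and Cd68). In the same comparisons 16.1% to 17.7% of all tested genes were called higher and 58.1% to 60.6% lower. The 9 erythroid markers together reached at most 0.829 CPM and the 5 fibroblast markers at most 2.51 CPM. The 6 dendritic cell markers went from 0.708 to 1.32 CPM at M0 to between 15.2 and 29.6 CPM with LPS, moving with the members that rose, and their part in those results was not tested. All 3 that passed the filter (Xcr1, Clec9a and Ccr7) were called higher in every comparison with M0, where 16.1% to 17.7% of all tested genes were. They had 0.285 CPM or less at M0 and passed only through LPS libraries, so the filter favoured a rise. Flt3 and Zbtb46 stayed at 0.713 CPM or less in every library. The library of wt M0 replicate 2 stood apart from the other 3 M0 libraries, with 656 CPM of 7 cycling markers against 1289.8 to 1348 CPM and 290.5 CPM of 12 neutrophil markers against 441 to 521 CPM, and the wt changes with LPS are given further on without it as well. Levels were compared as log2(CPM + 1) in limma, and a gene was called when its Benjamini-Hochberg adjusted p was under 0.05 and its fold change at least 1.4. With this scaling to library size the median tested gene went down by 0.74 log2 in wt and 0.70 log2 in Treml4-/- cells at M1-8 h and by 0.77 and 0.74 log2 at M1-12 h, whereas median of ratios scaling put it between -0.05 and -0.03 and quantile normalization between -0.13 and -0.11. CPM are shares of a library, so the shift of the median gene measures neither cell number nor total RNA per cell. In the marker lists, fewer cells of a type and less marker RNA per cell cannot be told apart in such bulk samples.

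In wt cells at M1-8 h, 6 of the 10 genes were higher than at M0 and 3 were lower, beside 16.3% and 60.6% of all tested genes. With median of ratios scaling the counts were 7 and 1, beside 30.9% and 30.9% of all tested genes. At M1-12 h 7 were higher and 1 was lower, beside 16.2% and 60.4% of all tested genes. In Treml4-/- cells the counts were 6 and 3 at M1-8 h, beside 17.7% and 58.1%, and 6 and 1 at M1-12 h, beside 16.1% and 59.6%. Saa3, Mt2, Lcn2, Hp and Slc11a2 were higher in both genotypes at both times under every scaling tried, Mt1 and Fth1 in part of these comparisons, and Tfrc was the gene that was lower in all 4. The median log2 fold change of the 10 genes was 1.58 in wt and 1.20 in Treml4-/- cells at M1-8 h, and 1.23 (wt) and 1.36 (Treml4-/-) at M1-12 h.

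**Figure D1:**
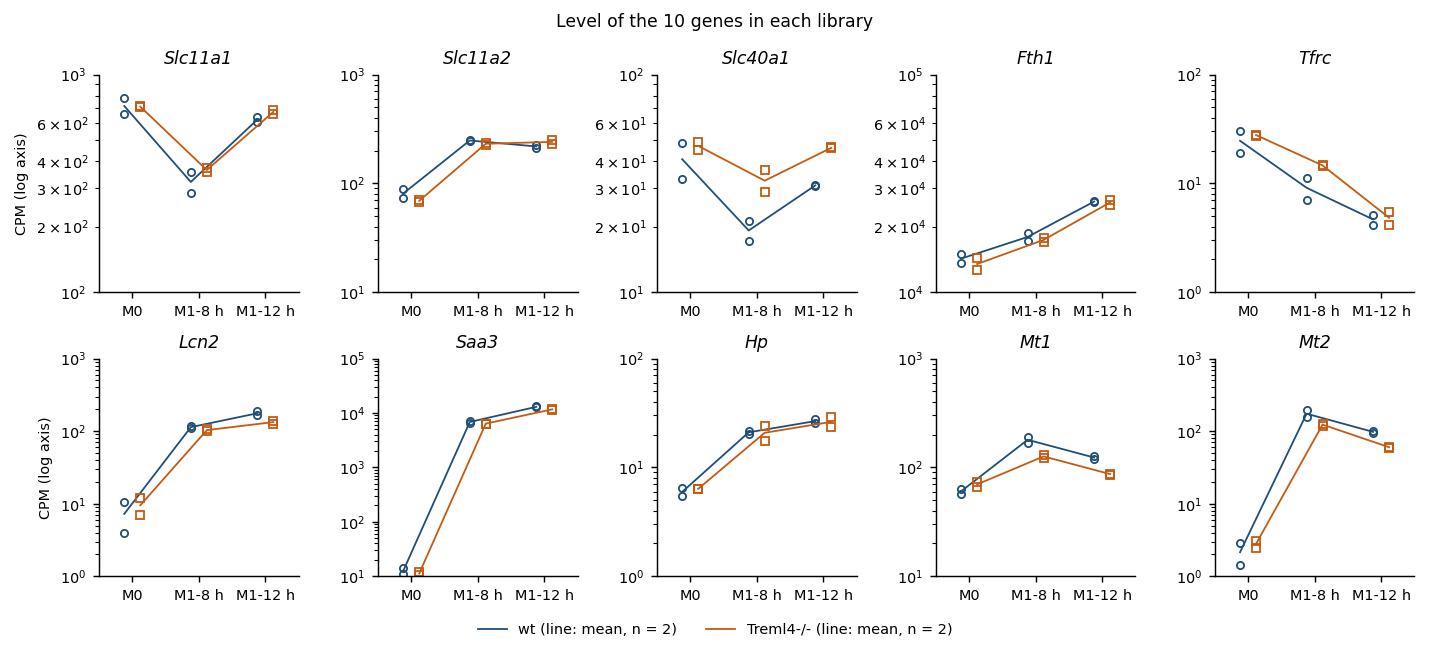
Level of each of the 10 genes in CPM (vertical axis, log scale, its range set per gene) at M0, M1-8 h and M1-12 h (horizontal axis). Circles are wt and squares Treml4-/- libraries, and lines join the means of 2 replicates. Saa3 goes from 10.7 to 14.3 CPM at M0 to between 11560.3 and 13283 CPM at M1-12 h, while Slc11a1 dips at M1-8 h and Tfrc declines at both times.

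Tfrc, which brings transferrin-bound iron into the cell, was the member that fell furthest. It had 30.4 and 18.9 CPM in wt M0 and 27.5 and 28.1 CPM in Treml4-/- M0 libraries. At M1-8 h the values were 11.2 and 7.04 CPM in wt and 14.9 and 14.3 CPM in Treml4-/- cells, falling to 4.16 and 5.16 CPM in wt and 5.50 and 4.17 CPM in Treml4-/- cells by M1-12 h. Within each genotype the 3 times did not overlap, and the 2 genotypes overlapped at M0 and M1-12 h but not at M1-8 h. The log2 fold change against M0 was -1.34 ± 0.23 (SE) in wt (adjusted p = 0.000206) and -0.88 ± 0.23 in Treml4-/- cells (adjusted p = 0.00391) at M1-8 h. By M1-12 h it was -2.15 (adjusted p = 3.87e-06) and -2.31 (adjusted p = 2.13e-06). The earlier fall was not called in Treml4-/- cells with median of ratios scaling (-0.16) or in either genotype with quantile normalization (-0.47 and -0.14), whereas the M1-12 h fall was called with both. Between M1-8 h and M1-12 h Tfrc fell by a further 1.43 log2 in Treml4-/- cells (adjusted p = 0.000515) and 0.81 log2 in wt (adjusted p = 0.0144), the latter no longer called without wt M1-8 h replicate 1 (-0.51, adjusted p = 0.131) or without wt M1-12 h replicate 1 (-0.68, adjusted p = 0.0944). The 7 cycling markers moved with it, from 656 to 1348 CPM at M0 to 78.4 to 118 CPM at M1-8 h and 27.0 to 33.8 CPM at M1-12 h, and their part in the result was not tested.

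Slc11a2, the divalent metal transporter that passes iron from the endosome to the cytosol, went the other way. Its M0 values were 72.7 and 88.5 CPM in wt and 67.2 and 70.9 CPM in Treml4-/- libraries. At M1-8 h it had 249 and 246 CPM in wt and 225 and 237 CPM in Treml4-/- cells, and at M1-12 h 227 and 209.5 CPM in wt and 232 and 249 CPM in Treml4-/- cells. Every LPS library was above every M0 library, and the LPS groups lay close together, each overlapping the next in order from wt M1-8 h (highest) to wt M1-12 h (lowest). It rose by 1.61 log2 in wt and 1.73 log2 in Treml4-/- cells at M1-8 h (adjusted p = 3.62e-08 and 2.08e-08) and by 1.43 and 1.78 log2 at M1-12 h (adjusted p = 8.90e-08 and 1.66e-08). No difference was called between M1-8 h and M1-12 h, at -0.18 log2 in wt (adjusted p = 0.154) and 0.06 log2 in Treml4-/- cells (adjusted p = 0.667).

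Slc11a1, its relative in the phagosome membrane and a locus of resistance to intracellular bacteria, dipped and came back at the RNA level. Whether its protein was functional in these C57BL6 cells was not measured. Libraries at M0 had 658 and 776 CPM in wt and 717 and 708 CPM in Treml4-/- cells. At M1-8 h they had 357 and 285 CPM in wt and 372 and 357 CPM in Treml4-/- cells, and at M1-12 h 636 and 606 CPM in wt and 661 and 686 CPM in Treml4-/- cells. All 4 M1-8 h libraries were below all other libraries. The fall at M1-8 h was 1.16 log2 in wt (adjusted p = 1.63e-06) and 0.97 log2 in Treml4-/- cells (adjusted p = 7.64e-06), and with median of ratios scaling it was not called in either (-0.32 and -0.21). Against M0 the M1-12 h level was not called, at -0.20 log2 in wt and -0.08 log2 in Treml4-/- cells, and with median of ratios scaling it was higher than M0 and called (0.67 and 0.74). From M1-8 h to M1-12 h, where the median of all genes moved by -0.04 and -0.08 log2, Slc11a1 rose by 0.96 log2 in wt (adjusted p = 5.81e-05) and 0.89 log2 in Treml4-/- cells (adjusted p = 0.000103), under every scaling tried.

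Slc40a1, the iron exporter, also had its lowest level at M1-8 h in both genotypes. It had 48.4 and 33.2 CPM in wt M0 and 45.0 and 49.1 CPM in Treml4-/- M0 libraries. M1-8 h libraries had 17.1 and 21.3 CPM in wt and 28.7 and 36.3 CPM in Treml4-/- cells, and M1-12 h libraries 30.9 and 31.0 CPM in wt and 46.3 and 45.8 CPM in Treml4-/- cells. At each LPS time both Treml4-/- libraries lay above both wt libraries, while the genotypes overlapped at M0. The log2 fold change at M1-8 h was -1.03 in wt (adjusted p = 0.000137) and -0.53 in Treml4-/- cells (adjusted p = 0.0127), neither of them called with median of ratios scaling (-0.22 and 0.21) or quantile normalization (-0.38 and -0.03). The Treml4-/- call was also lost without Treml4-/- M1-8 h replicate 1 (-0.36, adjusted p = 0.11) or without Treml4-/- M0 replicate 2 (-0.46, adjusted p = 0.0731). At M1-12 h the values of -0.37 in wt and -0.03 in Treml4-/- cells were not called, and both were positive with median of ratios scaling (0.49 and 0.78) and with quantile normalization (0.26 and 0.51). Without wt M0 replicate 2 the wt value at M1-12 h was -0.63 and was called (adjusted p = 0.00374). From M1-8 h to M1-12 h Slc40a1 rose by 0.67 log2 in wt (adjusted p = 0.00797) and 0.50 log2 in Treml4-/- cells (adjusted p = 0.0321). The wt call was lost without wt M1-8 h replicate 1 (0.52, adjusted p = 0.0683). The Treml4-/- call was lost without Treml4-/- M1-8 h replicate 1 (0.33), Treml4-/- M1-12 h replicate 1 (0.49) or Treml4-/- M1-12 h replicate 2 (0.51), and without the filter on low values (adjusted p = 0.0804).

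Fth1, the iron-oxidising subunit of ferritin, was the most abundant member per kilobase of exon in every group, from 3883 CPM per kb in Treml4-/- M0 to 7525 CPM per kb in wt M1-12 h cells. Its M0 libraries had 13594 and 14933 CPM in wt and 12652 and 14289.6 CPM in Treml4-/- cells. At M1-8 h they had 18736 and 17151 CPM in wt and 17046 and 17735 CPM in Treml4-/- cells, and at M1-12 h 25923 and 26283 CPM in wt and 25208 and 26507 CPM in Treml4-/- cells. The 3 times did not overlap, and the 2 genotypes overlapped at each of them. At M1-8 h the log2 fold change of 0.33 in wt and 0.37 in Treml4-/- cells was under the minimum fold (adjusted p = 0.018 and 0.0102), and it was called with median of ratios scaling (1.18 and 1.12) and quantile normalization (0.66 and 0.60). At M1-12 h Fth1 rose by 0.87 log2 in wt (adjusted p = 2.09e-05) and 0.94 log2 in Treml4-/- cells (adjusted p = 1.12e-05), under every scaling tried. The further rise from M1-8 h to M1-12 h, 0.54 log2 in wt (adjusted p = 0.00275) and 0.57 log2 in Treml4-/- cells (adjusted p = 0.00199), was not called with quantile normalization (0.14 in both) or without the filter on low values (adjusted p = 0.119 and 0.0979), and the wt rise was also lost without wt M1-8 h replicate 2 (0.48).

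Saa3 had the largest change of the 10. It had 14.3 and 10.8 CPM in wt M0 and 11.8 and 10.7 CPM in Treml4-/- M0 libraries. At M1-8 h there were 6626 and 7043 CPM in wt and 6388 and 6359 CPM in Treml4-/- cells, and at M1-12 h 12688 and 13283 CPM in wt and 11811 and 11560.3 CPM in Treml4-/- cells. Mean CPM was 545 times that at M0 in wt and 567 times in Treml4-/- cells at M1-8 h, and 1035 and 1039.9 times at M1-12 h. All LPS groups were separate from each other in the order wt M1-12 h, Treml4-/- M1-12 h, wt M1-8 h and Treml4-/- M1-8 h. The log2 fold change was 8.99 ± 0.11 (SE) in wt and 9.03 ± 0.11 in Treml4-/- cells after 8 h and 9.92 (wt) and 9.90 (Treml4-/-) after 12 h, with adjusted p of 4.06e-13 or less. Between the LPS times it rose by 0.93 log2 in wt (adjusted p = 7.34e-05) and 0.87 log2 in Treml4-/- cells (adjusted p = 0.000114). Per kilobase of exon Saa3 went from rank 5 (wt) or 8 (Treml4-/-) of the 10 genes at M0 to rank 2 in all 4 LPS groups.

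Lcn2, the siderophore-binding lipocalin, had 10.5 and 3.97 CPM in wt M0 and 6.89 and 12.1 CPM in Treml4-/- M0 libraries. At M1-8 h there were 110.2 and 117 CPM in wt and 106 and 100.2 CPM in Treml4-/- cells, and at M1-12 h 165 and 187 CPM in wt and 139.8 and 127 CPM in Treml4-/- cells. No LPS group overlapped another, and both M0 groups overlapped. Lcn2 rose by 3.92 ± 0.32 log2 (SE) in wt and 3.36 ± 0.32 log2 in Treml4-/- cells at M1-8 h (adjusted p = 3.77e-07 and 1.34e-06) and by 4.55 and 3.72 log2 at M1-12 h (adjusted p = 9.94e-08 and 5.47e-07). The wt rise at M1-8 h was 3.31 log2 without wt M0 replicate 2 and 4.52 log2 without wt M0 replicate 1, and at M1-12 h 3.94 and 5.15 log2, called in each. The change from M1-8 h to M1-12 h, 0.63 log2 in wt (adjusted p = 0.128) and 0.36 log2 in Treml4-/- cells (adjusted p = 0.376), was not called, while the wt one was with voom (adjusted p = 0.0444) and with only the libraries compared (adjusted p = 0.00514).

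Hp, whose product carries haemoglobin to macrophages, had 6.48 and 5.43 CPM in wt M0 and 6.40 and 6.30 CPM in Treml4-/- M0 libraries. With LPS for 8 h it had 20.4 and 21.6 CPM in wt and 24.0 and 17.6 CPM in Treml4-/- cells, and for 12 h 25.4 and 27.9 CPM in wt and 29.0 and 23.4 CPM in Treml4-/- cells. All LPS libraries were above all M0 libraries, and the genotypes overlapped at every time. It rose by 1.67 and 1.55 log2 at M1-8 h (adjusted p = 1.13e-06 and 2.01e-06) and by 1.99 and 1.88 log2 at M1-12 h (adjusted p = 2.27e-07 and 3.84e-07) in wt and Treml4-/- cells. Lcn2 and Hp are also made by neutrophils and their precursors. The 12 neutrophil markers together had 290.5 to 521 CPM in the M0 libraries and 99.1 to 232 CPM in the LPS libraries, and their part in the result was not tested. Mmp8 made up 50.1% to 82.6% of this sum, and without it the M0 libraries (50.5 to 163 CPM) and the LPS libraries (49.4 to 110.1 CPM) overlapped. The median log2 fold change of the 10 markers tested was -0.69 in wt at M1-8 h, beside -0.74 for all tested genes, and -1.40 beside -0.77 at M1-12 h. In Treml4-/- cells it was -0.95 beside -0.70 at M1-8 h and -1.70 beside -0.74 at M1-12 h. The defining marker Ly6g was at 0.131 CPM or less in all 12 libraries and without a read in 6, and S100a8 was the marker among them that was higher with LPS, from 8.79 to 26.4 CPM at M0 to between 30.6 and 50.3 CPM.

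Per kilobase of exon the level of Mt2 went from below that of Mt1 at M0 (3.65 against 48.4 CPM per kb in wt, 4.75 against 56.0 in Treml4-/- cells) to above it at M1-8 h (296 against 144 CPM per kb in wt, 209 against 101 in Treml4-/- cells). This order at M1-8 h depends on the exon lengths used, 1246 bases for Mt1, which is its whole gene span, and 588 bases for Mt2. In mean CPM Mt2 was below Mt1 in every group. At M1-8 h it had 174 against 179 CPM in wt and 123 against 126 CPM in Treml4-/- cells. Mt2 had 2.85 and 1.44 CPM in wt M0 and 3.10 and 2.49 CPM in Treml4-/- M0 libraries. At M1-8 h there were 154 and 194 CPM in wt and 127 and 119 CPM in Treml4-/- cells, and at M1-12 h 93.3 and 102 CPM in wt and 60.6 and 59.4 CPM in Treml4-/- cells. All LPS groups were separate, and in both genotypes M1-8 h was above M1-12 h. Mean CPM was 81.1 times that at M0 in wt and 44.1 times in Treml4-/- cells at M1-8 h, and 45.5 and 21.5 times at M1-12 h. On the log2 scale the change was 5.83 ± 0.19 (SE) and 5.04 ± 0.19 at M1-8 h (adjusted p = 2.28e-10 and 7.37e-10) and 5.01 and 4.01 at M1-12 h (adjusted p = 7.77e-10 and 4.65e-09). From M1-8 h to M1-12 h Mt2 fell by 0.82 log2 in wt (adjusted p = 0.00431) and 1.02 log2 in Treml4-/- cells (adjusted p = 0.00112), under every scaling tried.

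Its neighbour Mt1 started higher and changed less. Libraries at M0 had 63.6 and 57.1 CPM in wt and 72.9 and 66.7 CPM in Treml4-/- cells. At M1-8 h they had 168 and 191 CPM in wt and 123 and 129 CPM in Treml4-/- cells, and at M1-12 h 127 and 119 CPM in wt and 85.7 and 87.9 CPM in Treml4-/- cells. As for Mt2, wt was above Treml4-/- without overlap at both LPS times, while at M0 the order of the genotypes was the reverse. Mt1 rose by 1.56 log2 in wt (adjusted p = 3.17e-08) and 0.85 log2 in Treml4-/- cells (adjusted p = 5.11e-06) at M1-8 h and by 1.02 log2 in wt at M1-12 h (adjusted p = 9.81e-07). In Treml4-/- cells at M1-12 h the value of 0.31 was under the minimum fold (adjusted p = 0.00867), and it was called with median of ratios scaling (1.13) and quantile normalization (0.72). From M1-8 h to M1-12 h Mt1 fell by 0.54 log2 in wt and 0.53 log2 in Treml4-/- cells (adjusted p = 0.000822 and 0.000848). This fall was under the minimum fold in both genotypes with quantile normalization (-0.40 and -0.41), in Treml4-/- cells with median of ratios scaling (-0.46) and in wt without wt M1-8 h replicate 2 (-0.44). The other metallothioneins were near 0, with Mt3 at 0.26 CPM or less and Mt4 at 1 read in 1 of the 12 libraries.

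**Figure D2:**
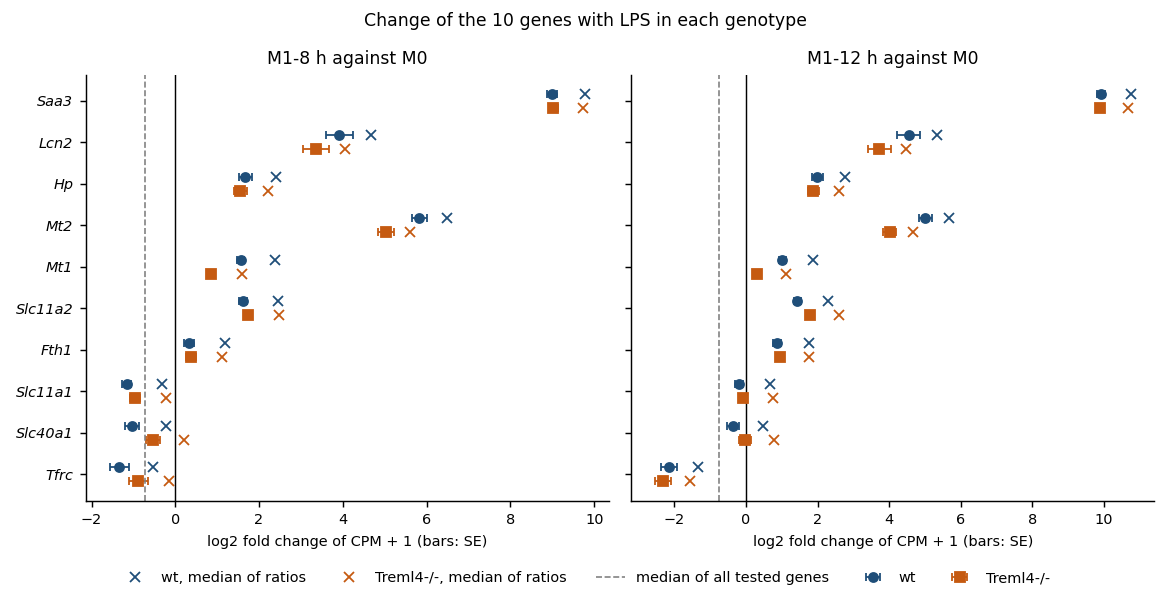
Log2 fold change of CPM + 1 against M0 (horizontal axis) for the 10 genes at M1-8 h and M1-12 h, with circles for wt, squares for Treml4-/- and bars for the standard error of the fit. Crosses give the same change with median of ratios scaling, and the dashed line is the median of all tested genes, averaged over the genotypes. Slc11a1 and Slc40a1 at M1-12 h are left of 0 as filled symbols and right of 0 as crosses, while Saa3, Mt2, Lcn2, Hp and Slc11a2 are right of 0 as both.

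Between M1-8 h and M1-12 h, 4 members rose and 3 fell in each genotype, beside 14.0% and 17.6% of all tested genes in wt and 12.9% and 19.4% in Treml4-/- cells. The same genes were called in both: Fth1, Saa3, Slc11a1 and Slc40a1 higher and Mt1, Mt2 and Tfrc lower. With quantile normalization the counts were 3 and 2 in each genotype, beside 15.7% and 15.4% of all tested genes in wt and 16.3% and 15.6% in Treml4-/- cells.

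The comparison of the genotypes asks whether loss of Treml4 altered these levels at a given time. None of the 10 genes was called between wt and Treml4-/- cells at M0, M1-8 h or M1-12 h in limma, where 0.0993%, 0.0910% and 0.132% of all tested genes were called, and none with voom. At an unadjusted p under 0.05 there were 1, 4 and 3 members at these times, beside 405, 2539 and 912 of all 12086 tested genes. At M1-8 h Mt1 was 0.50 log2 higher in wt (95% interval 0.30 to 0.71, adjusted p = 0.104) and Mt2 0.49 log2 higher (0.08 to 0.90, adjusted p = 0.191). Slc40a1 was 0.73 log2 lower in wt, with a log2 difference of -0.73 (-1.10 to -0.35, adjusted p = 0.126), and the difference for Tfrc was -0.66 (-1.17 to -0.15, adjusted p = 0.179). At M1-12 h the differences were 0.50 for Mt1 (0.29 to 0.71, adjusted p = 0.116), 0.69 for Mt2 (0.28 to 1.10, adjusted p = 0.283) and -0.56 for Slc40a1 (-0.93 to -0.19, adjusted p = 0.384). At M0 it was Mt1 that had the lowest p, with a difference of -0.21 (-0.41 to -0.003, adjusted p = 1).

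Some of these differences were called when the data were handled otherwise. Mt1 at M1-8 h was called with median of ratios scaling (0.63, adjusted p = 0.0492), where 15 of all tested genes were called in place of 11. Slc40a1 at M1-8 h was called without Treml4-/- M1-8 h replicate 1 (-0.89, adjusted p = 0.0344), where calls over all tested genes went from 11 to 598, or 4.95%. Mt2 at M1-12 h was called when the fit held only the 4 libraries compared (0.69, adjusted p = 0.0496), with 13 of 10592 genes called. Among the remaining members the intervals lay between -0.24 and 0.34 log2 for Fth1 and between -0.15 and 0.40 log2 for Saa3 at the 3 times, and the widest were those of Lcn2, from -1.12 to 0.27 log2 at M0 and from -0.30 to 1.10 log2 at M1-12 h.

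**Figure D3:**
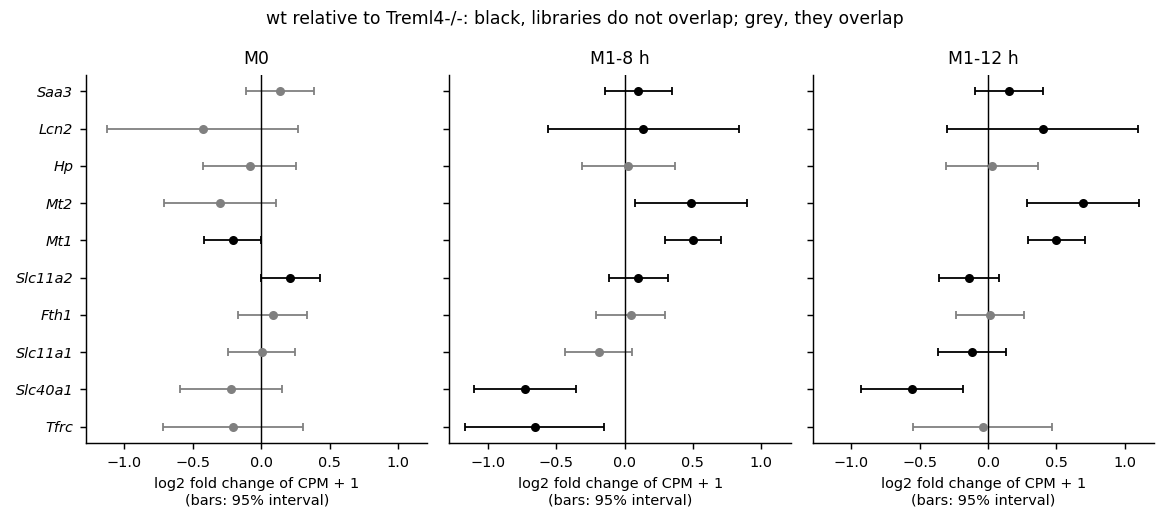
Log2 fold change of CPM + 1 in wt relative to Treml4-/- cells (horizontal axis) for the 10 genes in a panel for each time, with 95% intervals of the limma fit. Black marks genes whose 2 wt and 2 Treml4-/- libraries do not overlap and grey those that do. Mt1, Mt2 and Slc40a1 are away from 0 at both LPS times, with 0.50, 0.49 and -0.73 at M1-8 h, and none has an adjusted p under 0.05.

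Whether the LPS response itself differed between genotypes was tested as the difference of the log2 fold changes. No member was called at M1-8 h or M1-12 h, where 0.00827% of all tested genes were called at each time. At an unadjusted p under 0.05 there were 2 members at M1-8 h and 3 at M1-12 h, beside 806 and 462 of all tested genes. The response of Mt1 was larger in wt by 0.71 log2 at both times (adjusted p = 0.709 and 0.999), and that of Mt2 by 0.79 log2 at M1-8 h and 0.99 log2 at M1-12 h (adjusted p = 0.729 and 0.999). For Slc11a2 at M1-12 h the difference was -0.35 log2 (adjusted p = 0.999). Without wt M0 replicate 1, which left the deviating wt M0 replicate 2 as the only wt M0 library, the Mt2 difference at M1-12 h was 1.33 log2 and was called (adjusted p = 0.0461), where calls over all tested genes went from 1 to 33. Without wt M0 replicate 2 it was 0.66 log2 (adjusted p = 0.683).

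Several members differed in wt M0 replicate 2 alongside the marker lists. It had 0.404 times the mean of the other 3 M0 libraries for Lcn2, 0.511 times for Mt2, 0.659 times for Tfrc and 0.700 times for Slc40a1, beside 0.498 times for the cycling and 0.592 times for the neutrophil markers. On the high side were Slc11a2 at 1.26 times and the macrophage markers at 1.25 times. Saa3 was the 1 member inside the range of the other M0 libraries. Without this library the wt log2 fold change at M1-8 h and M1-12 h was -1.66 and -2.48 for Tfrc, 1.75 and 1.57 for Slc11a2, -1.04 and -0.08 for Slc11a1 and -1.30 and -0.63 for Slc40a1. It was 0.40 and 0.94 for Fth1, 8.81 and 9.73 for Saa3, 1.56 and 1.88 for Hp, 5.50 and 4.68 for Mt2 and 1.48 and 0.94 for Mt1. Every member kept the direction of its wt change at both LPS times without this library. The part of the marker lists in these values was not tested.

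**Figure D4:**
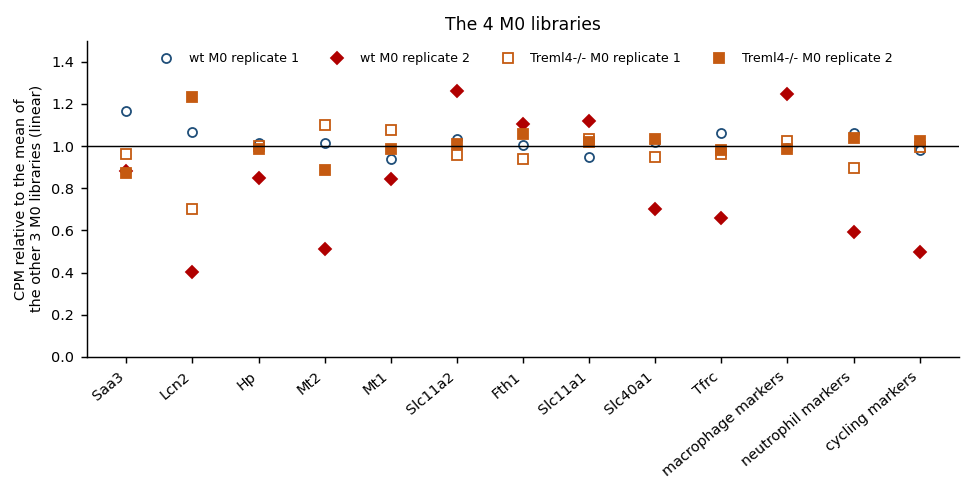
Level of the 10 genes and of 3 summed marker lists in each M0 library, divided by the mean of wt M0 replicate 1 and both Treml4-/- M0 libraries (vertical axis, linear, from 0). The red diamonds of wt M0 replicate 2 lie at 0.404 for Lcn2 and 0.498 for the cycling markers and above 1 for Slc11a2, Fth1, Slc11a1 and the macrophage markers.

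Other genes of iron traffic were described from written lists. In the list of uptake and export, 10 of 15 genes in the table were tested. After 8 h of LPS 3 were higher and 5 lower in wt, 3 were higher and 6 lower in Treml4-/- cells, and after 12 h the counts were 3 and 7 in both. Of all tested genes, 16.1% to 17.7% were higher and 58.1% to 60.6% lower in these comparisons. Cp (ceruloplasmin), the ferroxidase that works with ferroportin, went from between 0.102 and 0.501 CPM at M0 to between 40.9 and 62.2 CPM with LPS. Steap4, a metalloreductase, had at most 0.0197 CPM at M0, 16.0 to 16.3 CPM at M1-8 h and 1.75 to 3.53 CPM at M1-12 h, whereas its relative Steap3 fell from between 96.1 and 115 CPM at M0 to between 1.89 and 3.30 CPM at M1-8 h and between 2.94 and 7.59 CPM at M1-12 h. Cp and Steap4 were under 1 CPM in every M0 library and passed the filter only through LPS libraries, so the filter favoured their rise. Slc39a14, a zinc and iron importer, rose by 1.68 and 1.65 log2 at M1-8 h and 0.70 and 0.76 log2 at M1-12 h in wt and Treml4-/- cells. The folate and haem transporter Slc46a1 (-2.77 to -3.01 log2), the haem transporter Slc48a1 (-1.19 to -2.41 log2) and Lrp1, a receptor for haem-hemopexin (-1.64 to -2.76 log2), fell in all 4 comparisons, though Slc48a1 in Treml4-/- cells at M1-12 h was not called with median of ratios scaling (-0.37).

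Among 13 tested genes of iron storage and haem, 2 to 3 were higher and 7 to 8 lower in each comparison with M0, shares near the 16.1% to 17.7% and 58.1% to 60.6% of all tested genes. Hmox1, which breaks haem down and frees its iron, had 537 to 629.8 CPM at M0, 1753 to 2036 CPM at M1-8 h and 5788 to 7182 CPM at M1-12 h. Alas1, the first enzyme of haem synthesis, rose by 0.61 to 1.16 log2, and in wt at M1-8 h it was not called without wt M0 replicate 1 (0.32). Ftl1, the partner of Fth1 in ferritin, fell from between 20852 and 22674 CPM at M0 to between 5974 and 7126 CPM at M1-8 h and between 7007 and 8189 CPM at M1-12 h, opposite to Fth1. Reads from near-identical copies of Ftl1 were not resolved, while no read-length stretch of the 10 members' transcripts occurred in those of another gene. The ferritin receptor Ncoa4 (-1.20 to -2.49 log2), Fech (-1.29 to -1.89 log2), which puts iron into haem, and Blvra (-1.29 to -1.56 log2), which turns biliverdin into bilirubin, also fell. With median of ratios scaling Ncoa4 (-0.38) and Fech (-0.48) were not called in Treml4-/- cells at M1-12 h, nor Blvra in wt at M1-8 h (-0.46).

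In the list of iron sensing, 7 of 10 genes were tested, with 2 to 4 higher and 2 to 3 lower, beside 16.1% to 17.7% and 58.1% to 60.6% of all tested genes. Fbxl5, the iron-sensing subunit of a ubiquitin ligase that removes Ireb2, had 26.7 to 35.8 CPM at M0, 182 to 292 CPM at M1-8 h and 464 to 603 CPM at M1-12 h. Spic, a transcription factor of iron-recycling macrophages, rose in all 4 comparisons, by 1.59 and 1.94 log2 in wt. Hfe fell from between 81.9 and 99.0 CPM to between 6.45 and 7.69 CPM at M1-12 h, and Aco1, itself an iron regulatory protein, was lower in all 4 comparisons (-1.84 to -2.05 log2). Hamp, which encodes the hormone hepcidin, had 0.446 CPM or less in every library.

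Of 15 tested genes in the zinc list, 3 were higher and 9 lower at M1-8 h in both genotypes, and at M1-12 h 1 was higher and 8 (wt) or 9 (Treml4-/-) lower, beside 16.1% to 17.7% higher and 58.1% to 60.6% lower of all tested genes. Slc30a1, the zinc exporter under Mtf1 control like the metallothioneins, rose by 1.59 and 1.93 log2 at M1-8 h and by 1.75 and 1.99 log2 at M1-12 h in wt and Treml4-/- cells. The transporters Slc39a10, Slc30a5, Slc39a13 and Slc39a11 were lower in all 4 comparisons (-1.03 to -2.26 log2), with Slc39a11 at M1-8 h not called with median of ratios scaling (-0.19 and -0.41).

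In the acute-phase list 3 of 16 genes passed the filter. Of these 2, Serpina3g and Saa1, were higher in each comparison with M0, where 16.1% to 17.7% of all tested genes were. Both were under 1 CPM in every M0 library and passed the filter only through LPS libraries. The filter thus favoured a rise, and no conclusion is drawn from this count. Serpina3g, a protease inhibitor, went from between 0.281 and 0.924 CPM at M0 to between 1395 and 1620.2 CPM at M1-8 h and between 1049.8 and 1316 CPM at M1-12 h. Saa1, a close relative of Saa3, was without a read at M0 and had 0.632 to 1.04 CPM at M1-8 h and 1.60 to 2.30 CPM at M1-12 h, and Saa2 had at most 0.345 CPM. All 8 inducers of the response were tested, with 6 higher and 2 lower at M1-8 h in both genotypes and with 5 higher and 3 lower at M1-12 h. Of all tested genes, 16.1% to 17.7% were higher and 58.1% to 60.6% lower in the same comparisons. The cytokine Il1b rose by 6.69 to 7.61 log2 and Il6 from at most 0.0815 CPM to between 119 and 230.0 CPM at M1-8 h and 28.7 to 72.8 CPM at M1-12 h, as did Stat3 (2.08 to 2.60 log2) and Nfkbiz (1.71 to 2.45 log2). Il1b and Il6 were likewise under 1 CPM in every M0 library and passed the filter only through LPS libraries. The receptor genes Il6st (-1.78 to -2.24 log2) and Il6ra (-1.11 to -2.44 log2) fell, though median of ratios scaling left Il6ra uncalled in Treml4-/- cells at M1-12 h (-0.29). None of the genes in these 6 lists was called between the genotypes in limma.

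**Figure D5:**
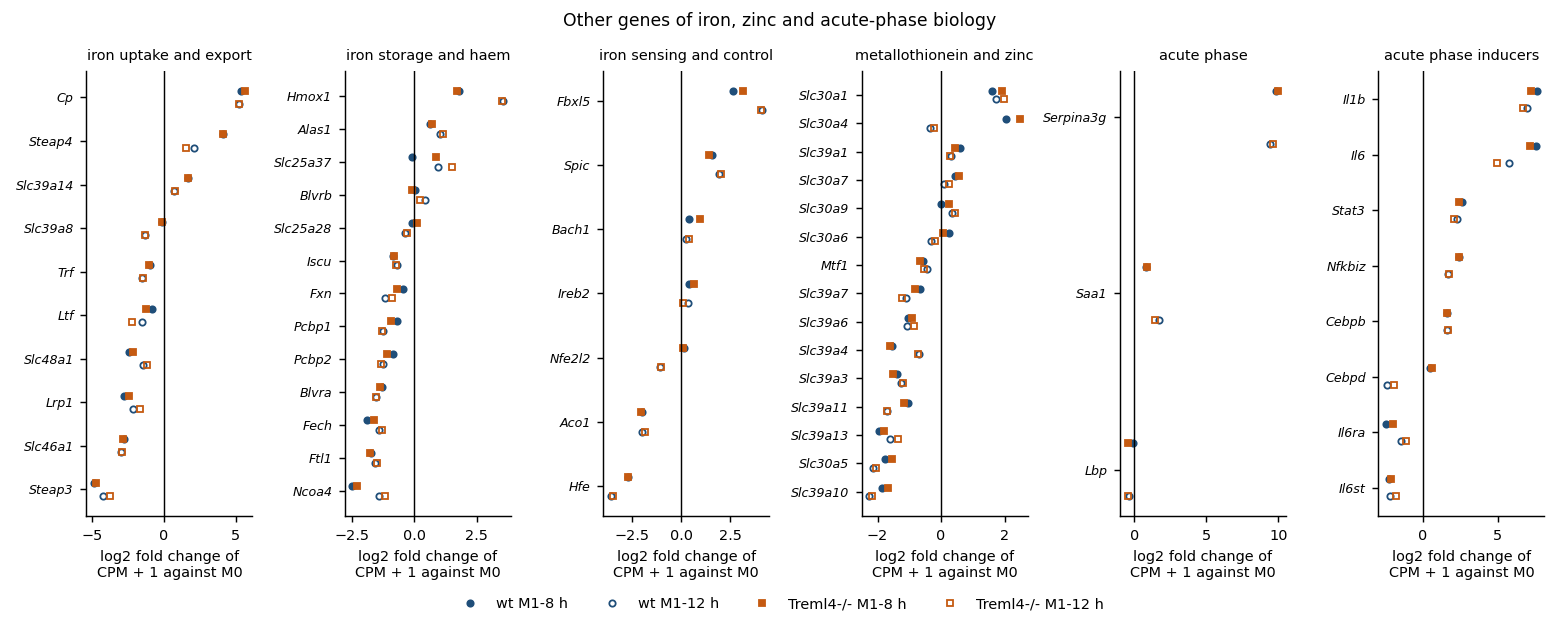
Log2 fold change of CPM + 1 against M0 (horizontal axis, its range set per panel) for the tested genes of 6 written lists, with circles for wt, squares for Treml4-/-, filled symbols for M1-8 h and open ones for M1-12 h. Cp and Serpina3g lie far to the right, Steap3 and Hfe to the left, and Fbxl5 and Hmox1 move further right at M1-12 h.

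The genes whose level over the 12 libraries was most like each member's, by Pearson's r of log2(CPM + 1), are given as a description, since the libraries share their conditions. Saa3 was followed most closely by Irgm2 and Cfb (r = 0.999 for both) and Lcn2 by the proteasome genes Psma4 (r = 0.998) and Psma5 (r = 0.993). For Mt2 they were Adprm and Glipr2 (r = 0.997 for both), for Slc11a2 Slamf8 (r = 0.994) and AW011738 (r = 0.994), and for Hp Rnf34 (r = 0.995) and Tmbim4 (r = 0.994). Fth1 was most like Ap3m2 and Fez2 (r = 0.993 for both), Tfrc like Gtf2a2 (r = 0.996) and 2810417H13Rik (r = 0.994) and Slc11a1 like Il10rb (r = 0.989) and Adam8 (r = 0.988). The lowest of these values were those of Mt1, with Tmed1 and Alpk2 (r = 0.960 and 0.956), and Slc40a1, with Zmym6 and Csnk1g3 (r = 0.959 and 0.956).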

How the data were processed

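The authors aligned stranded paired-end reads with STAR (build mm10 per the labels), counted them on genes with Subread and deposited log2 CPM, that is, library-size-normalized counts on the log2 scale. A prior of 0.25 reads was found in the deposited log2 values, and taking it away gave whole reads (within 0.01) for 100% of values. Whether counting used strand is not given in the sources used here. CPM were tested as log2(CPM + 1), which understates changes of low genes, with limma 3.58.1 in R 4.3.3 (1 mean per group, all 12 libraries, trend in the prior variance) over genes reaching 1 CPM in 2 or more libraries. P-values were adjusted by Benjamini-Hochberg over all of them. The step was tested on simulated data. Tables and sequences were handled in Python 3.11.15 with pandas 2.3.3, and figures drawn with matplotlib 3.10.9. The floor of 3 reads is 0.0513 to 0.0625 CPM, for counting error only. Replicates of every group differed by more than sampling noise, so each counts once.

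The members and lists were chosen with earlier results of these data known. Named beside the 10 members were Treml4, up to 4 list genes per direction called alike in both genotypes at both LPS times with the largest mean change, close paralogs, and the 2 genes most correlated with each member. The cell type markers and Hamp were named after their values were seen. The alternatives were a pseudocount of 0.1, no filter or 5 CPM, 2 blocks, 2 scalings, no trend, the deposited log2 CPM, voom on reads, only the libraries compared, no minimum fold and each library left out. Flvcr1, Flvcr2 and Adgre1 were not analysed here. In addition, 1 gene of the iron storage and haem list is not reported here.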

Additional observations from a re-analysis of the deposited data

Results flagged for a closer look

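Slc11a2 from M1-8 h to M1-12 h moved in opposite directions in the genotypes, and the difference between these changes was not tested. In wt both M1-12 h libraries (227 and 209.5 CPM) were below the M1-8 h mean of 248 CPM, and in Treml4-/- cells both (232 and 249 CPM) were above the M1-8 h mean of 231 CPM. Neither change was called on its own, and Treml4-/- replicate 1 at M1-12 h lay within the range of its M1-8 h libraries.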

How the results depend on the processing

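Between the genotypes, 1 member in place of 0 was called with median of ratios scaling at M1-8 h (Mt1) and at M1-12 h with only the libraries compared (Mt2); the cause was not tested. Leaving out each library in turn gave 0 to 1 members at M1-8 h, the 1 being Slc40a1 without Treml4-/- M1-8 h replicate 1 (598 of all tested genes called in place of 11), and 0 to 1 for the genotype difference of the LPS change at M1-12 h, the 1 being Mt2 without wt M0 replicate 1 (33 of all tested genes in place of 1). Counts of members called with LPS stayed within 1.5 times under every alternative run, at 5 to 7 of 7 for wt M1-12 h against M1-8 h and within 1 of the reported count elsewhere when a library was left out. Direction reversed for Slc11a1 at M1-12 h against M0 with median of ratios scaling (0.67 in wt, 0.74 in Treml4-/- cells) and for Slc40a1 with that scaling (0.49 in wt and 0.78 in Treml4-/- cells at M1-12 h, 0.21 in Treml4-/- cells at M1-8 h), with quantile normalization (0.26 and 0.51 at M1-12 h) and, in Treml4-/- cells at M1-12 h, when a library was left out (-0.092 to 0.034, the latter without Treml4-/- M0 replicate 2). For the reversals with another scaling, and not the one with a library left out, the scaling was the step that changed. Of all calls against M0, 21.2% to 23.4% were higher with library size, 48.8% to 50% with median of ratios and 43.2% to 45.5% with quantile normalization. The members' higher and lower calls became 7 and 1 (wt M1-8 h), 8 and 1 (wt M1-12 h), 7 and 0 (Treml4-/- M1-8 h) and 9 and 1 (Treml4-/- M1-12 h) with median of ratios scaling. With that scaling 30.9% to 32.9% of all tested genes were called higher and 30.9% to 33.1% lower in these comparisons. Of 60 member values with LPS, 60 kept both direction and call with a pseudocount of 0.1, a 5 CPM filter, no trend or the deposited log2 CPM. Both were kept by 57 without a filter and by 47 each with median of ratios scaling and quantile normalization.

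Replicate numbers do not pair samples in the labels, and same-numbered wt and Treml4-/- libraries deviated from their group means with r over genes of -0.26 (M0), 0.30 (M1-8 h) and 0.06 (M1-12 h). Pairs of times within wt gave r of 0.12, 0.06 and 0.41, and within Treml4-/- 0.46, -0.20 and -0.27. In the fit with a replicate block, 9, 8 and 7 members were called in wt for M1-8 h and M1-12 h against M0 and M1-12 h against M1-8 h. Of all tested genes 77.0%, 76.7% and 31.8% were called. In Treml4-/- cells the counts were 9, 7 and 7, beside 75.9%, 75.8% and 32.5%. Between the genotypes 0 members were called, beside 0.0993% to 0.124%. These are the counts of members without the block. With 2 libraries per group the spread is pooled over groups, and a library left alone in its group is assumed to vary like the others.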
